A study of Mus musculus with 2 samples.

Results

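The mouse miRNAs numbered miR-6896 to miR-7093 come largely from mirtrons and tailed mirtrons, short introns or intron ends that fold into a hairpin. The 3p arms of these hairpins were chosen by name alone: every spot for a 3p arm numbered from miR-6896 to miR-7093, with a letter after the number allowed. This gave 200 members of the 1900 miRNA probes on each array. A further 200 spots on each array carry the 5p arms of the same numbers, and 591 other probes have names ending in -3p.

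In the usual route to a miRNA, the nuclease Drosha cuts a hairpin out of a long transcript, and Dicer then cuts off its loop. A mirtron skips Drosha: the spliceosome cuts out the intron, the lariat is opened by the debranching enzyme, and the folded intron goes straight to Dicer. In a tailed mirtron only one end of the hairpin is set by splicing and the other is trimmed. Because introns end in a pyrimidine-rich tract followed by AG, the 3p arm of a hairpin that reaches the end of its intron carries these letters, and the 5p arm that pairs with it is rich in purines. Bases 2 to 8 of a mature miRNA, its seed, take the largest part in pairing with target mRNAs.

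The RNA came from B16, a mouse melanoma cell line grown in DMEM with 5% fetal bovine serum. Cells were preincubated for 24 h and given either a control siRNA or an siRNA against Fam222B with a lipid reagent, and total RNA was taken 48 h later. Each siRNA had 1 array (n = 1), with Cy5-labelled RNA and 1 spot for each probe. Both groups are transfected cells of the same line, the labels name no untreated cells, and the arrays do not measure Fam222B mRNA, so the depth of the knockdown was not analysed here. With n = 1 the values carry no replicate error and the siRNAs could not be compared by a test. miR-211-5p, a miRNA of the melanocyte lineage encoded in an intron of Trpm1, gave 264 and 326 net units on the control-siRNA and Fam222B-siRNA arrays, and no other marker of the line was looked at.

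Signal is given in net intensity units: the spot's median in the Cy5 channel minus the mean of the array's 896 blank spots. That mean was 70.3 on the control-siRNA array and 69.9 on the Fam222B-siRNA array, and the SD among blank spots was 1.54 and 1.66. A spot counted as detected above the trimmed mean plus 2 SD of the blank spots, which lay at 72.6 and 72.5 units before subtraction. Different probes bind their targets with different strength, so the order of spots by brightness does not order the amounts of RNA. A detected spot is a signal at the probe of that name. Whether the mature miRNA itself gave it was not tested.

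Mature sequences were found in RefSeq (GRCm38.p6) for 176 of the 200 members and hairpins for 171. The mature sequences of the 10 members with the brightest spots are shown because they carry most of the signal of the group. Each is written 5′ to 3′ with the seed, bases 2 to 8, in capitals and with the chromosomal interval and strand of the mature RNA.
miR-7000-3p, chr2:92387384-92387405, minus strand: cACCCACCugccuguccuccag
miR-7052-3p, chr7:44470391-44470411, plus strand: gCUCUGCCcccuccuucccag
miR-7045-3p, chr6:125097066-125097086, plus strand: uCUCCCCCcucccccgcacag
miR-7056-3p, chr7:47083166-47083187, minus strand: cCUCACCUgucucccaccacag
miR-7082-3p, chr9:21075499-21075520, minus strand: gCCCCCCUugcugucugucucc
miR-7028-3p, chr5:114719557-114719578, plus strand: cCUUCUCUucccccucggccag
miR-6917-3p, chr10:128584437-128584458, minus strand: gUCACUUCucuucccaccacag
miR-7033-3p, chr5:135383730-135383750, minus strand: uGCCUCCAuucucuugggcag
miR-7022-3p, chr4:148146937-148146958, minus strand: aCAAGCCUgaccucugccccca
miR-7046-3p, chr7:24970010-24970031, minus strand: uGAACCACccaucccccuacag
The 10 have 10 different seeds, so they do not form a family by seed.

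The hairpins of miR-7000 and miR-7052, the brightest members, and of miR-7053, the highest difference on the quantile scale described later among members detected on both arrays, show where the 3p arm sits. Here the 3p arm is in capitals.
Mir7000, chr2:92387384-92387446, minus strand: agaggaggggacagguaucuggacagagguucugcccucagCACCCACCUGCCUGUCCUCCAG
Mir7052, chr7:44470347-44470411, plus strand: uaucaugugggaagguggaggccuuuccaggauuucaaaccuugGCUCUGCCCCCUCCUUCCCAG
Mir7053, chr7:44538106-44538178, minus strand: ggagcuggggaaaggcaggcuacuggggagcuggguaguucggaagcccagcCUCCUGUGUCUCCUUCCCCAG
In all 3 the 3p arm is the end of the hairpin and closes with CAG, the letters that end many introns, while none of the 3 hairpins opens with the GU that starts an intron.

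The same layout held for most members. Of 171 hairpins, 161 ended in AG, 23 started with GU and 19 did both, and in 128 the 3p arm was the last stretch of the hairpin. Hairpins were 52 to 109 bases long, with a median of 66. All 171 lay inside the interval of a protein-coding gene, such as Mapk8ip1 for miR-7000, which encodes a scaffold of the JNK pathway, Josd2 for miR-7052, which encodes a deubiquitinase, and Pold1 for miR-7053, which encodes the catalytic subunit of DNA polymerase delta. Only gene intervals were compared, so whether a hairpin fills an intron, and on which strand the gene runs, was not checked. Of the 176 mature 3p sequences, 138 (78.4%) ended in AG and 120 in CAG. Among the other 3p probes 56 of 499 (11.2%) ended in AG, and among the 5p arms of the same numbers 12 of 176 (6.82%) did.

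The members were 18 to 25 bases long (median 22) and rich in pyrimidines. Their median pyrimidine content was 72.1%, against 31.8% for their 5p arms and 54.5% for the other 3p probes. The extremes were miR-6902-3p at 47.6% and miR-7047-3p, named after its value was seen, at 91.3%. C made up a median of 40.9% of a member, 13.6% of a 5p arm and 27.3% of another 3p probe, and the median G content was 14.3%, 43.7% and 22.7% in that order. The longest run of pyrimidines had a median of 8 bases in the members, 3 in the 5p arms and 4 in the other 3p probes. The run CCCC, searched on the mature strand as written with overlaps counted once per sequence, occurred in 48 of 176 members (27.3%), in 1.70% of the 5p arms, in 7.62% of the other 3p probes and in 7.50% of all 1614 probes with a sequence. Other motifs were searched the same way. UCCC was in 40.3% of the members and 11.9% of all 1614 sequences. CCCAG was in 15.9% of the members and 4.46% of all, and CACAG in 13.6% and 5.14%. CCAG was in 29.5% of the members and 13.2% of all, and overlaps CCCAG. GGGG was in 1.14% of the members, 38.1% of their 5p arms and 11.3% of all.

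**Figure D1:**
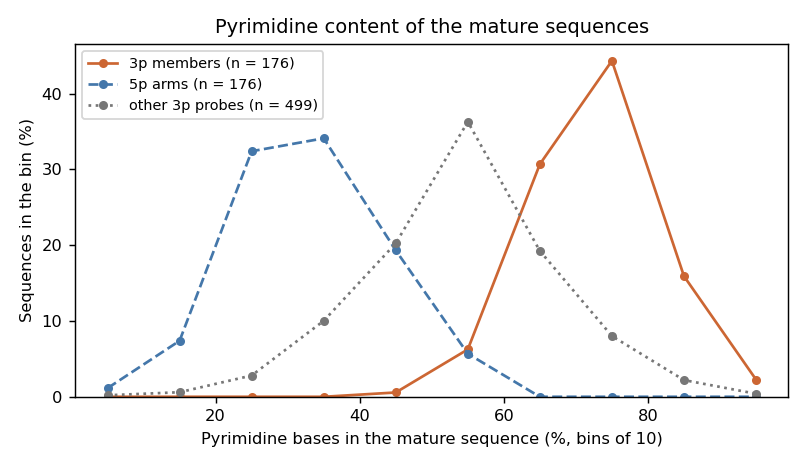
Percent of sequences (vertical axis) in bins of 10% pyrimidine content (horizontal axis) for the 176 members with a sequence (solid line), the 176 5p arms of the same numbers (dashed) and 499 other 3p probes (dotted). The members peak between 70% and 80%, to the right of the other 3p probes (median 54.5%) and of their own 5p arms (median 31.8%).

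On the control-siRNA array 147 of the 200 members (73.5%) were detected, where 64.2% of all miRNA probes were. On the Fam222B-siRNA array 114 members (57%) were detected, where 50.4% of all probes were. Of the 5p arms 163 (81.5%) and 136 (68%) were detected, and of the other 3p probes 352 (59.6%) and 267 (45.2%), so on each array the share of the members lay below that of their 5p arms and above that of the other 3p probes. Detection on both arrays was seen for 108 members (54%, against 47.9% of all probes). A further 39 members were detected on the control-siRNA array alone (16.3% of all probes were) and 6 on the Fam222B-siRNA array alone (2.53% of all probes were), and 47 were detected on neither. With the blank spots as background, the count was thus lower on the Fam222B-siRNA array for the members, the 5p arms, the other 3p probes and the array as a whole. With the spots named No Probe as background, 149 members were detected on each array and 137 on both, so the members' counts no longer differed between the arrays. The share of all probes detected with that background is not given here.

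**Figure D2:**
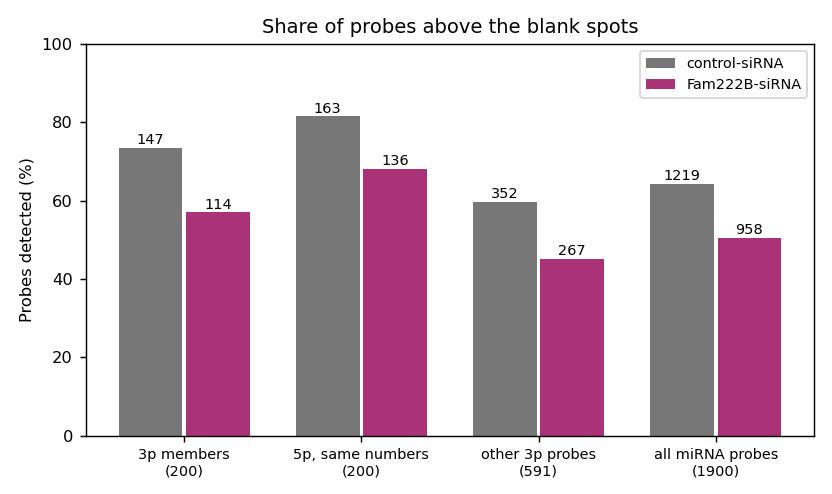
Percent of probes detected (vertical axis) on the control-siRNA array (grey bars) and the Fam222B-siRNA array (purple bars) for the 200 members, their 200 5p arms, 591 other 3p probes and all 1900 miRNA probes, with the count above each bar. With the blank spots as background, as plotted, each list has a lower share on the Fam222B-siRNA array, and the members go from 147 to 114. With No Probe spots as background the members' count was 149 on each array, and the other lists are not given for that background.

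The detected members were dim. Their median net signal was 5.74 units on the control-siRNA array and 5.55 on the Fam222B-siRNA array, where all detected probes had medians of 7.31 and 9.34. Under 10 net units lay 124 of the 147 and 85 of the 114. At least 10 units were reached by 23 and 29 members, at least 20 units by 6 and 8, and at least 100 units by 2 on each array. Over all 200 members, detected or not, the medians were 4.56 and 3.29 units, and the lowest values were -2.72 and -2.74.

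At the detection threshold on the control-siRNA array, miR-6993-3p (2.31 net units), miR-7055-3p (2.42) and miR-6971-3p (2.48) lay just above it. Just below it lay miR-7058-3p (2.20), miR-7021-3p (2.10) and miR-6928-3p (2.01). On the Fam222B-siRNA array miR-6906-3p (2.74), miR-6900-3p (2.75) and miR-7058-3p (2.81) lay just above, and miR-6921-3p (2.49), miR-6902-3p (2.48) and miR-6928-3p (2.47) just below. The gaps across the threshold were far smaller than the SD of the blank spots, so the detected state of such members has little weight.

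miR-7000-3p gave 644 net units with the control siRNA and 538 with the Fam222B siRNA. It held 35.0% and 34.8% of the summed net signal of the detected members, which was 1839 and 1543 units. Among the 791 probes named -3p its spot was the brightest on the control-siRNA array and number 2 on the Fam222B-siRNA array, and among all 1900 miRNA probes it ranked 20 and 26. All detected members together made up 1.22% and 1.03% of the net signal of the detected probes.

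miR-7052-3p gave 112 net units with the control siRNA and 117 with the Fam222B siRNA. miR-7045-3p, whose hairpin lies within Chd4, the gene of a chromatin-remodelling ATPase, gave 72.3 and 66.0. With miR-7000-3p these hold 45.0% and 46.7% of the summed signal of the detected members. The other 7 of the 10 brightest ran from 17.2 to 30.7 net units over both arrays.

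Among those 7, miR-7056-3p (within Ptpn5, a tyrosine phosphatase gene) gave 28.2 net units with the control siRNA and 29.5 with the Fam222B siRNA. miR-7082-3p (within Raver1, which encodes an RNA-binding protein) gave 30.7 and 25.5. miR-7028-3p (within Tchp, the gene of a keratin-binding protein) gave 22.7 and 20.6. On both arrays these 3 spots lay far above the blank spots. miR-6917-3p (within Erbb3, a receptor gene of the EGF receptor family) gave 18.9 and 21.3, and miR-7033-3p (within Pom121, a nuclear pore gene) gave 18.9 and 19.8. miR-7022-3p (within Fbxo6, an F-box gene) gave 18.1 and 18.5, and miR-7046-3p (within Rabac1, a gene of vesicle transport) gave 18.5 and 17.2. Apart from miR-7000-3p, none of the 10 brightest differed between the arrays by more than 2 spot SD on either scale.

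**Figure D3:**
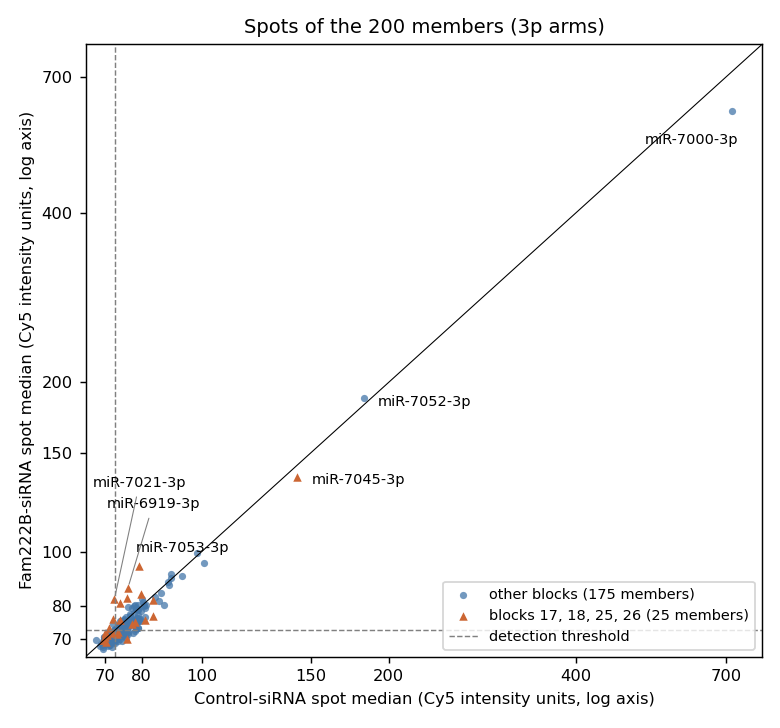
Spot median of each of the 200 members on the Fam222B-siRNA array (vertical, Cy5 intensity units, log axis) against the control-siRNA array (horizontal, log axis), before the blank mean is subtracted. Circles are 175 members printed in other blocks, triangles the 25 printed in blocks 17, 18, 25 and 26, dashed lines the detection thresholds (72.6 and 72.5 units) and the solid line equal values. Most members crowd near the thresholds, miR-7000-3p stands far above the others, and miR-7053-3p, miR-6919-3p and miR-7021-3p lie above the line of equal values.

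Spot brightness among the members went with the C content of the sequence. Spearman's rho between percent C and net signal was 0.58 on the control-siRNA array and 0.51 on the Fam222B-siRNA array over 176 members, and 0.22 and 0.24 over 499 other 3p probes. In the 5p arms, where G takes the place of C, rho between percent G and net signal was 0.48 on each array. For the percent of G and C together, rho was 0.46 and 0.48 in the members. It was 0.58 and 0.59 in the 5p arms, and 0.34 and 0.36 in the other 3p probes. These are descriptions across probes that share an array and base composition, and carry no p. Between percent C and the difference between the arrays rho was -0.028, over the 94 members with a sequence that were detected on both.

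By classes of C content, with limits of 40% and 50% set after the values were seen, 42 of 81 members under 40% C were detected on the control-siRNA array (51.9%) and 31 on the Fam222B-siRNA array (38.3%). Of 63 members with 40% to under 50% C, 56 (88.9%) and 42 (66.7%) were detected. Of 32 members with at least 50% C, 31 (96.9%) and 27 (84.4%) were. From the lowest to the highest class the median net signal went from 2.42 to 7.96 units on the control-siRNA array and from 1.87 to 8.26 on the other. In the other 3p probes 54.7% and 39.5% of 430 were detected under 40% C, 77.4% and 66.0% of 53 in the middle class, and 100% and 93.8% of 16 with at least 50% C. Within a class of C content the shares of the members and of the other 3p probes were thus nearer to each other than over all probes, and a larger share of the members than of the other 3p probes fell in the C-rich classes. The part of base composition in the detected shares was not tested.

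Of the 48 members with CCCC, 46 (95.8%) were detected on the control-siRNA array and 39 (81.25%) on the Fam222B-siRNA array. Over all members the shares were 73.5% and 57%, and over all miRNA probes 64.2% and 50.4%. All 8 with CCCCC, miR-7045-3p among them, were detected on both. Runs of C raise the C content, and 96.9% and 84.4% of the members with at least 50% C were detected. The motif was not told apart from the C content. Of the 19 members whose listed hairpin starts with GU and ends with AG, 10 (52.6%) and 8 (42.1%) were detected. Of the 142 whose hairpin ends with AG without starting with GU, 105 (73.9%) and 81 (57.0%) were. Of the 10 whose hairpin does not end with AG, 9 (90%) and 7 (70%) were. These classes go by the outermost bases of the listed hairpin alone. Some of the 142, such as the hairpin of miR-6917, have a GU a few bases after their start. The classes thus do not separate whole introns from the ends of longer introns. The brightest of the 19 was miR-7046-3p with 18.5 and 17.2 net units, while miR-7000-3p, miR-7052-3p and miR-7045-3p are among the 142.

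**Figure D4:**
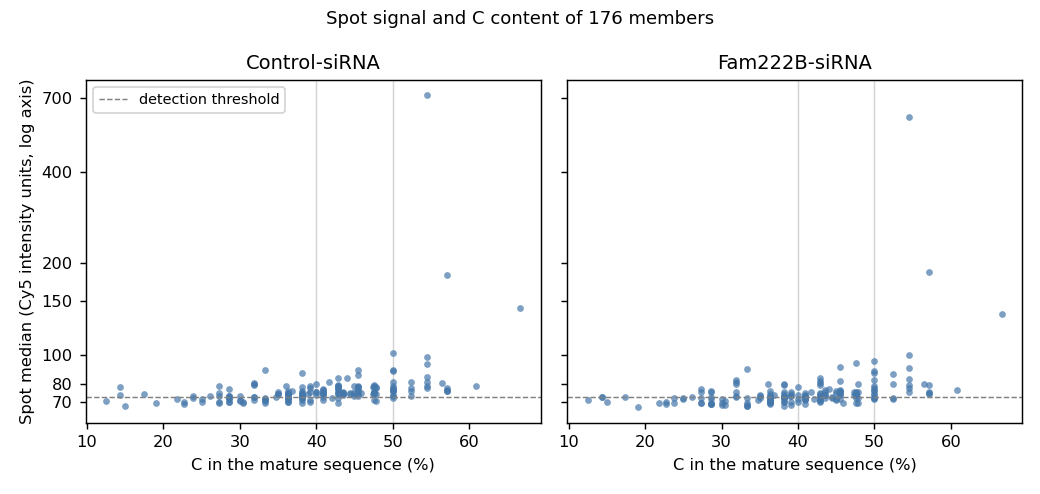
Spot median (vertical, Cy5 intensity units, log axis) against percent C of the mature sequence (horizontal) for 176 members on the control-siRNA array (left) and the Fam222B-siRNA array (right); the dashed line is the detection threshold and the grey lines mark 40% and 50% C. Signal above 100 units occurs at 50% C or more, and 31 and 27 of the 32 members at 50% C or more were detected.

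For the 3 brightest members, the longest stretch shared with another mature miRNA on the array was sought. Only the 1614 of 1900 miRNA probes with a sequence could be searched. miR-7000-3p shares 12 bases with miR-339-5p, whose own spot gave 8.64 and 6.67 net units. miR-7052-3p shares 10 bases with miR-7022-3p and 10 with miR-3072-3p, whose spot gave 326 and 359 units. miR-7045-3p shares at most 8 bases with any of the sequences searched. The part of these shared stretches in the signal was not tested.

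The comparison of the arrays asks which members differ with the siRNA. A difference is the log2 ratio of the Fam222B-siRNA value to the control-siRNA value, after normexp background correction with an offset of 50 and quantile normalization over the miRNA probes, here the quantile scale. The offset damps the differences of dim spots, so they are also given on a blank-subtracted scale with no offset and equal medians over the miRNAs detected on both arrays. Each difference carries a spot SD, built from repeated control spots and blank spots. It covers spread within an array only and no spread between cultures, RNA preparations or hybridisations.

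On the quantile scale 52 of the 108 members detected on both arrays were higher with the Fam222B siRNA, 55 were lower and 1 had no difference. The median was -0.0042 (range -0.20 to 0.33), beside -0.010 for 132 of their 5p arms, 0 for 255 other 3p probes and -0.00013 for all 910 miRNAs detected on both. On the blank-subtracted scale the median was -0.062, beside -0.022 for the 5p arms, 0.014 for the other 3p probes and 0.0040 for all 910. On each scale the median of the members lay just below that of all 910, by far less than the spread among the members, and with scaling to bright control spots both medians were 0.15. Across the 108 members log2 net signals on the arrays had Pearson's r = 0.87 and Spearman's rho = 0.71, and rho was 0.61 without the 10 brightest.

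No member passed 2-fold on the quantile scale, and 0% of the 910 miRNAs did in either direction. By more than 2 spot SD, 6 members were higher, where 5.71% of the 910 were, and 4 were lower, where 4.29% were. The 6 and 4 of 108 members lie near these shares of all miRNAs.

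**Figure D5:**
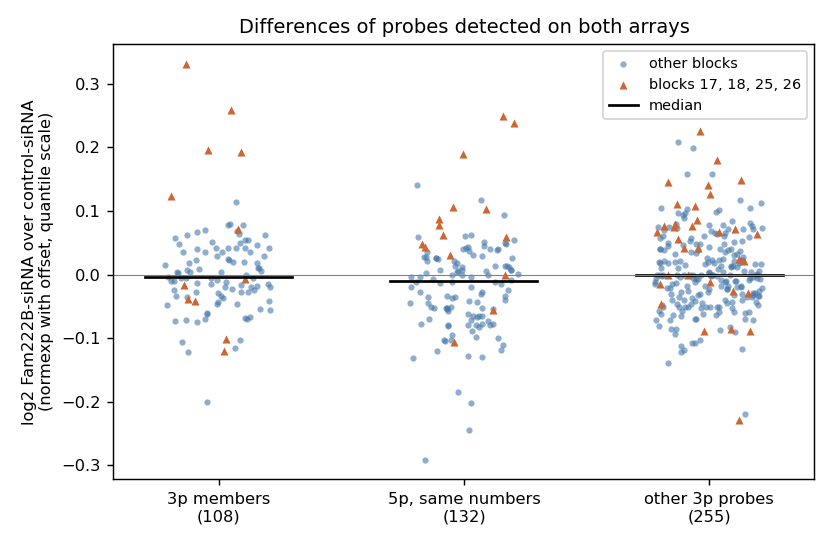
Log2 difference of Fam222B-siRNA over control-siRNA on the quantile scale (vertical axis) for the 108 members, 132 5p arms and 255 other 3p probes detected on both arrays; triangles are probes printed in blocks 17, 18, 25 and 26, circles all others, and black bars the medians (-0.0042, -0.010 and 0). The 5 members highest on the plot, up to 0.33, are triangles, and miR-7000-3p at -0.20 is the lowest circle of the members.

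Of the members detected on both arrays with at least median signal, those with the highest differences on the quantile scale are shown next, again with the seed in capitals. miR-7029-3p, the third of these 5, has no sequence in the RefSeq table used.
miR-7053-3p, chr7:44538106-44538126, minus strand: cUCCUGUGucuccuuccccag
miR-6919-3p, chr11:50232286-50232306, plus strand: gCUCCUCCuccuggcccacag
miR-7084-3p, chr9:22113951-22113972, minus strand: gCCUCUGAccccuguccucugc
miR-7076-3p, chr8:111689601-111689621, minus strand: uGACUACCacugucuccccag
They share no seed with each other.

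miR-7053-3p gave 9.06 net units with the control siRNA and 24.3 with the Fam222B siRNA. Its difference was 0.33 on the quantile scale (spot SD 0.052) and 1.55 on the blank-subtracted scale (spot SD 0.28), or 2.92-fold higher. miR-6919-3p, within Mgat4b, a gene of N-glycan branching, gave 5.82 and 16.4 net units, a difference of 0.26 on the quantile scale and 3.07-fold on the blank-subtracted scale. Both spots were dim but above the detection threshold with the control siRNA, and lay further above the blank spots with the Fam222B siRNA.

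miR-7029-3p gave 3.65 and 11.1 net units (0.20 on the quantile scale, 3.32-fold higher blank-subtracted). miR-7084-3p, within Elof1, a transcription elongation factor gene, gave 5.45 and 12.8 (0.19, 2.56-fold). miR-7076-3p, within Ctrb1, a chymotrypsinogen gene, gave 9.45 and 14.2 (0.12, 1.64-fold). A sixth member past 2 spot SD, miR-7004-3p, named after its value was seen, gave 5.69 and 9.74 (0.11, 1.86-fold). Of these 6, all but miR-7004-3p passed 2 spot SD on the blank-subtracted scale too, where 7.91% of the 910 miRNAs were higher by that measure. With the files' own background column, which follows the brightness of its own spot, miR-7053-3p was at -0.0098, miR-6919-3p at -0.00061 and miR-7084-3p at -0.017.

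Position on the array moved with these differences. Each of the 5 was printed in block 17, 18 or 26, which belong to a group of 4 of the 32 blocks (17, 18, 25 and 26), and miR-7004-3p was printed in block 9. The 4 blocks were picked in earlier work on these arrays because dim spots there gained signal on the Fam222B-siRNA array, so their higher values follow in part from the choice. They hold 25 members, 12 of them detected on both arrays, with a median difference of 0.032 on the quantile scale and 0.36 on the blank-subtracted scale. The other 96 of the 108, printed elsewhere, had medians of -0.0042 and -0.11. The 112 blank spots of the 4 blocks were higher by 0.078 units on the Fam222B-siRNA array, and the 784 blank spots of the other blocks differed by -0.45 units. Without the 4 blocks, 1 member (miR-7004-3p) was higher by more than 2 spot SD on the quantile scale, and none was on the blank-subtracted scale. The array as a whole had the same pattern. Of the 52 miRNAs higher by more than 2 spot SD on the quantile scale, 34 lay in the 4 blocks. The 123 miRNAs detected on both arrays in these blocks had medians of 0.056 on the quantile scale and 0.26 on the blank-subtracted scale. A blank-subtracted setting with blanks of the same block was added after seeing the data. With it the 5 members differed by 1.54 (miR-7053-3p), 1.59 (miR-6919-3p), 1.68 (miR-7029-3p), 1.24 (miR-7084-3p) and 0.65 (miR-7076-3p). With the blanks of the whole array these values were 1.55, 1.62, 1.73, 1.36 and 0.71. The part of the print position in these differences was not tested.

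The 5p partners of these members, printed in the same blocks, had smaller differences on the quantile scale. miR-7053-5p gave 33.7 and 37.1 net units (0.10 on the quantile scale). miR-6919-5p gave 3.77 and 6.30, and miR-7076-5p 10.5 and 12.2. miR-7084-5p was detected with the Fam222B siRNA alone, at 5.14 net units against 1.20, and miR-7029-5p was not detected on either array. Each of the 4 partners above the blank mean was thus higher on the Fam222B-siRNA array, as its 3p arm was.

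Of the lower members, miR-7000-3p had a difference of -0.20 on the quantile scale (spot SD 0.088) and of -0.14 on the blank-subtracted scale (spot SD 0.097), where it was within 2 spot SD. On the quantile scale the other members lower by over 2 spot SD were miR-6897-3p, miR-7005-3p and miR-7048-3p, whose sequences follow.
miR-6897-3p, chr1:36144252-36144272, minus strand: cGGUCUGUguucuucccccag
miR-7005-3p, chr2:180179756-180179780, minus strand: cUGUGCCUgcuacccaucccuugca
miR-7048-3p, chr7:25217668-25217688, minus strand: uCUUCCAUucucuuuccccag
miR-6897-3p, within Uggt1, a gene of glycoprotein folding control, gave 16.5 net units with the control siRNA and 10.4 with the Fam222B siRNA (-0.12, spot SD 0.053). miR-7005-3p, within Lama5, a laminin gene, gave 13.2 and 7.06 (-0.12, spot SD 0.054). miR-7048-3p, within Dedd2, a gene of the death effector domain family, gave 8.74 and 3.19 (-0.11, spot SD 0.056). On the blank-subtracted scale miR-7005-3p alone stayed lower by more than 2 spot SD (-0.79, spot SD 0.39, 1.72-fold lower), where 1.54% of the 910 miRNAs were. miR-7005-3p was printed in block 25, among the blocks chosen for gains, and the other 3 elsewhere. With the files' own background column miR-7000-3p was at 0.81, miR-6897-3p at 0.062 and miR-7048-3p at 0.020. With scaling to bright control spots, which put all 910 miRNAs at a median of 0.15, miR-6897-3p was at 0.040, miR-7005-3p at 0.032 and miR-7048-3p at 0.038, and miR-7000-3p stayed below 0 (-0.073).

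The lowest 5 of at least median signal also held miR-7013-3p and miR-7023-3p, both within 2 spot SD on the quantile scale. miR-7013-3p gave 10.7 net units with the control siRNA and 5.66 with the Fam222B siRNA (-0.10). miR-7023-3p, within Pik3cd, which encodes a catalytic subunit of phosphoinositide 3-kinase, gave 10.7 and 6.72 (-0.074).

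On the blank-subtracted scale 4 members were at least 2-fold higher, where 2.97% of the 910 miRNAs were, and 3 were at least 2-fold lower, where 2.42% were. The 4 were miR-7053-3p, miR-6919-3p, miR-7029-3p and miR-7084-3p, all in the 4 blocks. The 3 were miR-7048-3p (2.52-fold lower) and 2 members named after their values were seen, miR-6926-3p at 8.60 and 3.33 net units (2.37-fold) and miR-7040-3p at 8.05 and 2.87 (2.58-fold). None of these 3 passed 2 spot SD on that scale, and both counts lie near the shares of all miRNAs.

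Members detected on 1 array alone give only a bound. The sequences of the brightest on each side are shown.
miR-6902-3p, chr1:93346135-93346155, plus strand: cCAUGUGAuguguggguucag
miR-7021-3p, chr4:143136100-143136121, minus strand: uCUCUGUGcuucugcuccuuag
miR-7021-3p gave 2.10 net units with the control siRNA, below the threshold, and 12.6 with the Fam222B siRNA. It was at least 5.98-fold higher on the blank-subtracted scale and at least 1.20-fold on the quantile scale, and it lies in block 17. For such a bound the bright value was divided by the other array's lowest detected signal, or by the spot's own value there where that was higher.

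The next 2 of this kind were miR-6966-3p at 1.79 and 5.87 net units (at least 2.80-fold, block 26) and miR-7035-3p at 1.75 and 4.54 (at least 2.16-fold, block 19), both on the blank-subtracted scale. On the control-siRNA array alone the brightest were miR-6902-3p at 7.90 and 2.48 net units (at least 2.79-fold), miR-7020-3p at 7.11 and 1.86 (2.52-fold) and miR-7088-3p at 5.95 and 1.47 (2.10-fold). On the quantile scale the bounds in this paragraph ran from 1.04-fold (miR-7088-3p) to 1.08-fold (miR-6966-3p). The differences of miR-6902-3p, miR-7020-3p, miR-7088-3p and miR-7035-3p lay within 2 spot SD on both scales. That of miR-6966-3p did so on the blank-subtracted scale only. All 39 members detected with the control siRNA alone lay between 2.31 and 7.90 net units there, with a median of 3.91. On the Fam222B-siRNA array their median was 1.65. The 6 detected with the Fam222B siRNA alone lay between 2.74 and 12.6 net units, with a median of 3.94.

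Within a hairpin the 5p spot was more often the brighter. On the control-siRNA array both arms were detected for 126 of 200 hairpins, the 3p arm alone for 21, the 5p arm alone for 37 and neither for 16. On the Fam222B-siRNA array these counts were 85, 29, 51 and 35. Where both were detected, the 5p spot was brighter in 87 of 126 hairpins and in 57 of 85, with a median log2 of 3p over 5p net signal of -0.83 and -1.07. The arms have different probes, so this compares spots and not the amounts of the arms.

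The arms of miR-7000 and miR-7005 are shown as examples of a brighter 3p spot and a brighter 5p spot, and their 5p arms are given beside that of miR-7053 with the seed in capitals.
miR-7000-5p, chr2:92387420-92387441, minus strand: aGGGGACAgguaucuggacaga
miR-7005-5p, chr2:180179797-180179818, minus strand: cCUGGGGAugggaggaccagca
miR-7053-5p, chr7:44538153-44538173, minus strand: uGGGGAAAggcaggcuacugg
miR-7000-5p was not detected (1.68 and 0.58 net units), while its 3p arm was the brightest member. miR-7005-5p gave 493 and 466 net units, where its 3p arm gave 13.2 and 7.06. miR-7045-5p gave 65.1 and 66.7, close to the 72.3 and 66.0 of its 3p arm, and miR-7033-5p gave 116 on each array, above its 3p arm.

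The differences of the 3p and 5p arms of a hairpin were set side by side. Of 78 hairpins with both arms detected on both arrays, 36 had 3p and 5p differences of the same sign on the quantile scale, and Spearman's rho between the differences was 0.13. Net signals of the arms had a rho of 0.32 on the control-siRNA array and 0.27 on the Fam222B-siRNA array over 200 hairpins. The arms of a hairpin were printed in the same block.

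The members carry many seeds. Among 176 sequences there were 168 distinct seeds, and 7 seeds were held by 15 members. The detected members of 4 groups are shown, those in which 2 members were detected on the control-siRNA array.
miR-7023-3p, chr4:149655504-149655525, minus strand: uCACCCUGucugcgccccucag
miR-7068-3p, chr8:72470016-72470036, minus strand: uCACCCUGgacugacucucag
miR-6927-3p, chr11:97677106-97677126, plus strand: cCUGAGCUggcuccccugcag
miR-6945-3p, chr13:55507627-55507647, minus strand: uCUGAGCUcugcccuucccau
miR-7077-3p, chr8:117453060-117453079, plus strand: cCUUCCAUggcuccuggcag
miR-6973b-3p, chr2:131040326-131040345, minus strand: uGCUCUCUuacccuuccuag
miR-7063-3p, chr7:141620772-141620791, plus strand: uGCUCUCUgccccucuuaag
The first pair shares its seed with miR-7018-3p, the largest group with 3 members, and miR-7077-3p shares its seed with miR-7048-3p shown above.

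Members of a seed group had unlike signals. miR-6927-3p gave 13.2 net units with the control siRNA and 12.2 with the Fam222B siRNA, while miR-6945-3p gave 4.31 and 0.77. miR-7063-3p gave 9.55 and 8.36, and miR-6973b-3p gave 5.33 and 1.39. miR-7077-3p gave 3.64 and 0.064, and miR-7068-3p gave 2.84 and 1.46, both below the detection threshold with the Fam222B siRNA. In each of the 4 groups 1 member was detected on both arrays and another on the control-siRNA array alone. The groups were picked by detection on the control-siRNA array, so detection on the other array alone was not possible for these members. Among all probes, 309 of the 1219 detected on the control-siRNA array were detected there alone, and among the members 39 of 147 were.

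The seeds of 13 members are also those of probes outside the number range. miR-7002-3p has the seed of miR-218-5p (UGUGCUU) and gave 5.70 and 3.98 net units. miR-7069-3p has that of miR-18a-3p (CUGCCCU), a product of the miR-17-92 cluster, and gave 5.95 and 4.72. miR-7014-3p has that of miR-130b-5p (CUCUUUC) and gave 4.11 and 4.85. These 3 were named after their values were seen, and their differences lay within 2 spot SD on both scales.

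Splicing-derived miRNAs known from other work, outside the number range, gave a like picture. All 6 probes for the arms of miR-877, miR-1224 and miR-702 were detected on the control-siRNA array and 4 on the Fam222B-siRNA array. The brightest, miR-1224-5p, gave 28.2 and 27.2 net units, and the other 5 ran from 1.38 to 6.52. Their differences lay between -0.061 and 0.059 on the quantile scale.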

How the data were processed

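Each siRNA had 1 single-channel Toray 3D-Gene array, hybridised with Cy5-labelled total RNA, per the labels' protocols. Per the file headers, the deposited scanner files hold the median intensity of each spot, and no background was taken off. The scanner's name and its software were not given in the sources used here. The authors' deposited table holds processed intensity values on a linear scale, with background and scaling not stated there, and served as an alternative.

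No member had a spot flagged bad. The detection threshold left out 5% of blank spots at each end. Differences used normexp (offset 50) and quantile normalization in limma 3.58.1 (R 4.3.3), and other steps Python 3.11.15. The files' own background column follows the brightness of its spot, so it was an alternative and not the main setting. Spot SDs combine the CV of 5 bright control probes printed 8 times (4.67% and 4.78%) with the SD of the blank spots. All differences were computed over the whole array. The steps were tested on simulated data.

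Members, lists, blocks and rules were chosen with earlier results of these data known. Named members are the 10 brightest, the 5 with the highest and the 5 with the lowest difference (of members with at least the members' median signal), the 3 brightest on each array alone, 3 on each side of each threshold, those sharing a seed with another detected member, miR-7053-3p, miR-7000-3p and their 5p partners. Lists are the members, their 5p arms, the other 3p probes and 6 splicing-derived probes. Sequences, intervals and host genes are RefSeq's (GRCm38.p6), and 24 members had no sequence in the table used.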

Additional observations from a re-analysis of the deposited data

How the results depend on the processing

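No paired analysis was possible because each siRNA had 1 array. Detection at 5 SD of the blank spots left 73 members on the control-siRNA array, 44 on the Fam222B-siRNA array and 39 on both, so signal over background limits most calls. With No Probe spots as background these counts were 149, 149 and 137. The shares of all probes in these settings are not given here, so the members' counts cannot be set against the whole array. The main median of -0.0042 was -0.062 with blank subtraction and equal medians, -0.18 without scaling, -0.017 with equal 75th percentiles, -0.065 in the authors' deposited table, and, both added after seeing the data, -0.11 with blank subtraction and equal medians without the 4 blocks and -0.019 with blanks of the same block. It was positive with scaling to bright control spots (0.15, where all miRNAs moved by 0.15), with detection at 5 SD (0.023) and among members of at least the median signal of all miRNAs (0.0023). The cause was not tested.

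Past 2-fold, 0 members became 4 higher and 3 lower with equal medians and in the authors' deposited table, 4 and 5 without scaling, 5 and 3 with blanks of the same block, and 0 and 3 with equal medians without the 4 blocks. The offset of the main scale damps these differences by construction. Past 2 spot SD, the 4 lower became 1 with equal medians, in the authors' deposited table and with blanks of the same block. They became 7 with equal 75th percentiles and 0 with bright control spots. With bright control spots the 6 higher became 80, and all 910 miRNAs had a median of 0.15. The 6 higher became 3 with detection at 5 SD or at least the median signal, and 1 without the 4 blocks. They became 0, with 0 lower, with equal medians without these blocks. Shares of all 910 miRNAs are given above for the main scale and for equal medians over all blocks. For the other settings they are not given here, so those counts are no result about the members alone.

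The median log2 of 3p over 5p signal was -0.11 on the quantile scale, -0.083 over all pairs and -1.07 without the 4 blocks on the control-siRNA array, and -0.13, -0.066 and -1.16 on the other. With the files' own background column these members turned in sign: miR-7000-3p (0.81), miR-7052-3p (-0.83), miR-6917-3p (-0.094), miR-7022-3p (-0.0020), miR-7046-3p (0.089), miR-7053-3p (-0.0098), miR-6897-3p (0.062), miR-6919-3p (-0.00061), miR-7084-3p (-0.017), miR-7063-3p (0.054), miR-7023-3p (0.0097), miR-7048-3p (0.020) and miR-6900-3p (-0.026). With bright control spots, of the members named above that had a negative difference, miR-7000-3p stayed below 0 (-0.073) and the others turned positive, at 0.032 (miR-7005-3p) to 0.15 (miR-6927-3p), with miR-7048-3p at 0.038, miR-6897-3p at 0.040, miR-6926-3p at 0.045, miR-7040-3p at 0.046, miR-7013-3p at 0.054 and miR-7023-3p and miR-7082-3p at 0.079. With equal 75th percentiles miR-6900-3p was at -0.0019.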
